A study of Mus musculus with 6 samples.

Results

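The pyruvate dehydrogenase complex, its kinases and phosphatase, and pyruvate carboxylase were followed at the transcript level in brown adipose tissue of mice labelled for disruption of FAM195A. The 10 genes Pdha1, Pdhb, Dlat, Pdhx, Pdk1, Pdk2, Pdk3, Pdk4, Pdp1 and Pcx were chosen by symbol from the 24062 symbols of the count table, and all 10 passed the filter on low counts. Tissue came from male C57BL/6 mice, 12 weeks old, of which 3 were labelled FAM195A heterozygous and 3 were labelled FAM195A knockout, and each mouse gave 1 library of total RNA. There was no wild-type group, so each comparison sets loss of both copies against loss of 1. How the allele was made and the housing temperature are not stated in the sources used here.

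Pyruvate made by glycolysis enters mitochondria through a carrier of the inner membrane. There the pyruvate dehydrogenase complex turns it into acetyl-CoA, and pyruvate carboxylase turns it into oxaloacetate. The complex is built from E1 (the decarboxylase, with alpha and beta subunits from Pdha1 and Pdhb), E2 (the acetyltransferase core, Dlat), the E3-binding protein (Pdhx), which docks the third enzyme in the core, and E3 (dihydrolipoamide dehydrogenase, Dld). Kinases encoded by Pdk1 to Pdk4 phosphorylate E1 alpha and switch the complex off, and phosphatases such as the one whose catalytic subunit Pdp1 encodes switch it on again. Brown fat burns both fatty acids and glucose, and this switch is one of the points where the choice between them is set; Pdk4 is the kinase gene best known for its induction by fasting.

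The libraries held 18781401 to 25084627 reads in genes. Fam195a itself stood at 69.0, 70.5 and 103 CPM (reads scaled to a common library size) across heterozygous 1 to 3 and at 50.5, 82.0 and 81.3 CPM across knockout 1 to 3, so its level did not separate the labels. Directions given here therefore set the libraries by label alone, knockout-labelled against heterozygous-labelled. Titles of heterozygous 3 and knockout 3 begin with RE and those of the other 4 libraries with RF; the labels do not say what the prefix means. Skeletal muscle markers, which mark a tissue next to the fat depot, were lower in the knockout-labelled libraries: all 27 were detected in all 6 libraries and had negative log2 fold changes, and none passed at an adjusted p of 0.05 while all 27 had an unadjusted p under 0.05 (edgeR). Their summed level was 11928, 27990 and 36319 CPM across heterozygous 1 to 3 against 7518, 4380 and 4205 CPM across knockout 1 to 3. The summed level of 15 brown adipocyte markers, most of it from Fabp4, Ucp1 and Cidea, was 21251 to 26487 CPM in the 6 libraries. Of the 15, 10 were below 0 and 1 was called higher, as were 0.0526% of all genes. This was Elovl3, at 86.0, 98.9 and 88.3 CPM across heterozygous 1 to 3 and at 182, 161 and 216 CPM across knockout 1 to 3 (log2 1.03, edgeR adjusted p = 0.0418). Elovl3 and Cidea had all knockout-labelled libraries above the others, as did 1079 of all 13300 genes tested. In tissue RNA, fewer cells of a type and less RNA per cell cannot be told apart.

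The upstream sequences of 4 genes are shown because the results turn on these members: Pdhx passed the test, Pdha1 and Pdk2 were lower without overlap of the groups, and Pdk4 varied most between libraries. The sequences are from RefSeq on GRCm38, the assembly that mm10 names, where 9 of the 10 genes matched an entry. Each is taken from the window of 250 bases before the first listed start site and runs 5′ to 3′ on the gene's strand. It is the longest stretch of that window without a base that GENCODE M21 places in an exon. The Pdhx stretch is the 161 bases nearest the gene, and the Pdk4 stretch holds 219 bases. All 4 genes lie on the minus strand, and the stretches are chr2:103073514-103073674 for Pdhx, chrX:160138431-160138680 for Pdha1, chr11:95041372-95041621 for Pdk2 and chr6:5496310-5496528 for Pdk4. Capitals mark matches, on either strand, to 6 short motifs that are spelled out after the sequences.
Pdhx: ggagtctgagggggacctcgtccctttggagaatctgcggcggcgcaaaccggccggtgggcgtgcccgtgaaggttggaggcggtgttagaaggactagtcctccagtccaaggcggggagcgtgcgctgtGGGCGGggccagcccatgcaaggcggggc
Pdha1: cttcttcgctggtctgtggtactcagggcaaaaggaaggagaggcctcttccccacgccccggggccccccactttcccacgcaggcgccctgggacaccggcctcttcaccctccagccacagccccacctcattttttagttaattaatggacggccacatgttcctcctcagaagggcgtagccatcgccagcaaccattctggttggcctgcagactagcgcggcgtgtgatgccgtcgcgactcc
Pdk2: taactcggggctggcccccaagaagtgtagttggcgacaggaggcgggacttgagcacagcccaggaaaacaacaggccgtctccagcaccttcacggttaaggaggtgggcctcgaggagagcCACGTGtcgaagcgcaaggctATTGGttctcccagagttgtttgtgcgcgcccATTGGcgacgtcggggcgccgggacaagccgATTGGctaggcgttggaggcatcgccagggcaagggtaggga
Pdk4: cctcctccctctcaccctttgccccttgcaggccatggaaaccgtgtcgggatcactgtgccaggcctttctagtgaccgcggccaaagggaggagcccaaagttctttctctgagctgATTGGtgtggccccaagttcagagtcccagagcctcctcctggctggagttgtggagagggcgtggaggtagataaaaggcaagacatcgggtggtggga
The Pdk2 stretch held 3 matches to the CCAAT box, whose letters are its name, and the Pdk4 stretch held 1; of 32851 windows of 250 bases in the table, 33.8% held one. Pdk2 also held 1 match to the E-box, written CACGTG, which 6.02% of the windows held. The Pdhx stretch held 1 match to the GC box (2 in its whole window), written GGGCGG, found in 32.7% of the windows. Pdha1 held no match to any of the motifs. The TATA box, searched as TATAAA, was in 12.4% of the windows and in none of those listed first for the 9 matched genes. The extended nuclear receptor half-site, searched as AAGGTCA, was in 4.08% of the windows and in none of the 9. The forkhead site, searched as GTAAACA, was in 3.17% of the windows and in none of the 9. A missing match says only that these letters are not in the window.

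Of the 10 transcripts, most were at a lower level in libraries with the knockout label, and 1 passed the test. Log2 fold changes were below 0 for 9 of the 10 genes (46.9% of all 13300 genes tested were below 0), with a median of -0.42 against 0.02 for all genes tested. Pdhx fell, and no member rose; over all genes 0.534% were called lower and 0.0526% higher at an adjusted p of 0.05 (edgeR quasi-likelihood test, Benjamini-Hochberg). The groups did not overlap for 4 genes, Pdha1, Pdhx, Pdk2 and Pdp1, with all 3 knockout-labelled libraries below all 3 others, as for 9.89% of the genes tested. These 4 were also the members with an unadjusted p under 0.05, which 8.04% of all genes reached in that direction.

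**Figure D1:**
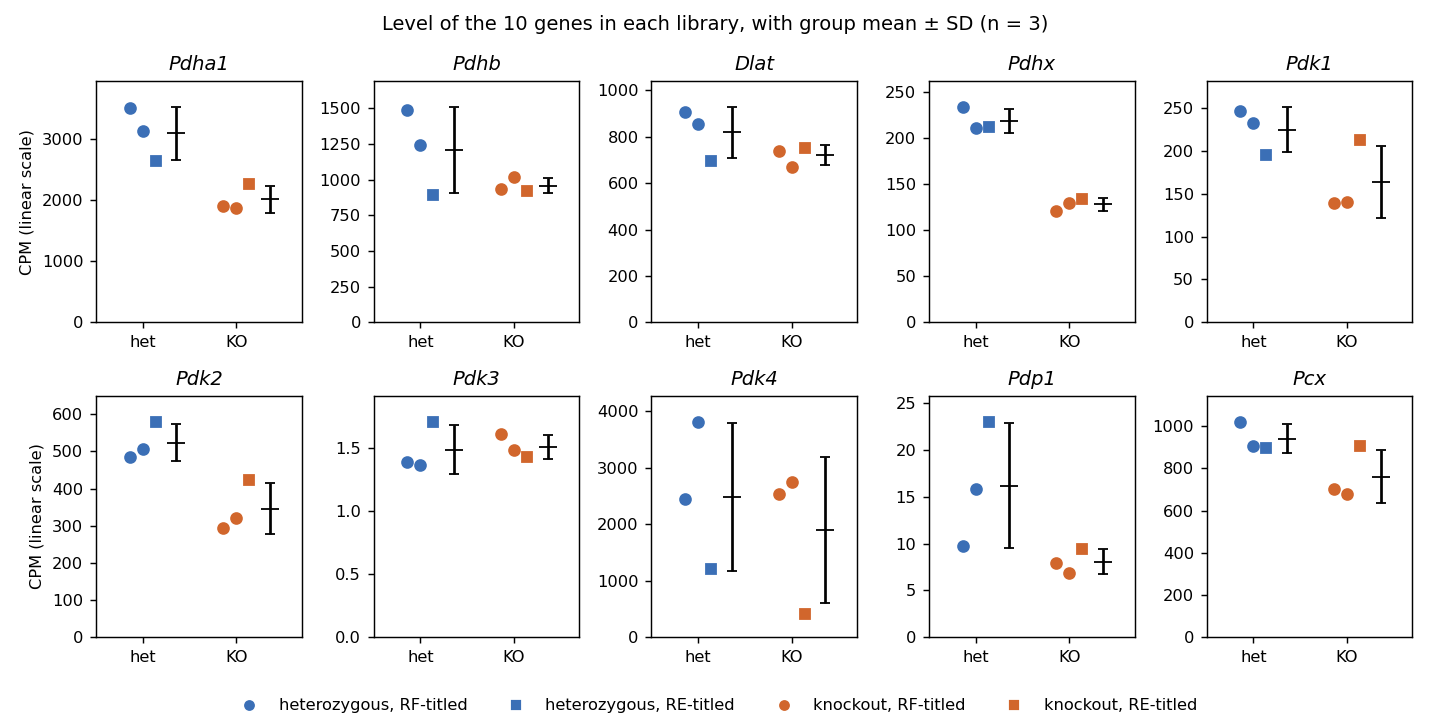
Level of each of the 10 genes in CPM on a linear axis from 0, with 1 point per library (blue heterozygous-labelled, het; orange knockout-labelled, KO; circles RF-titled, squares RE-titled) and bars for the group mean ± SD (n = 3 each). Pdhx has tight groups that lie apart (211 to 234 against 121 to 134 CPM), whereas Pdk4, and by less Pdhb, is lowest in the RE-titled library of each group.

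Among the subunits, the E3-binding protein gene Pdhx showed the tightest separation. Pdhx (ENSMUSG00000010914.10, chr2:103021075-103073513, minus strand) stood at 234, 211 and 212 CPM across heterozygous 1 to 3 and at 121, 129 and 134 CPM across knockout 1 to 3. The highest library was 1.11 times the lowest in each group, while the group means differed 1.71-fold. Pdhx fell by 0.77 on the log2 scale (SE 0.121, 95% interval -1.06 to -0.49, edgeR adjusted p = 0.0485), by 0.83 among the RF-titled libraries and by 0.66 between the RE-titled ones. The call sits at the threshold: the direction held without each library in turn, at -0.82 to -0.72, but the adjusted p was then 0.0574 (without knockout 3), 0.0643 (without heterozygous 1), 0.141 (without knockout 1), 0.144 (without heterozygous 3), 0.192 (without knockout 2) and 0.204 (without heterozygous 2). Apip, a methionine salvage enzyme gene that starts head to head with Pdhx, with an exon inside the window of 250 bases, did not follow it: 52.9, 46.0 and 41.1 CPM across heterozygous 1 to 3, and 52.3, 56.0 and 52.5 CPM across knockout 1 to 3 (log2 0.20, edgeR adjusted p = 0.692).

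Pdha1, which encodes the E1 alpha subunit that the kinases phosphorylate, was lower without overlap but did not pass. Pdha1 (ENSMUSG00000031299.10, chrX:160122209-160138413, minus strand) stood at 3503, 3124 and 2640 CPM across heterozygous 1 to 3 and at 1898, 1870 and 2260 CPM across knockout 1 to 3. The 2 RE-titled libraries were the closest pair across the groups. The log2 fold change was -0.62 (SE 0.179, 95% interval -1.04 to -0.20, edgeR adjusted p = 0.175); it passed by DESeq2 (adjusted p = 0.0181). Exons of Map3k15 on the opposite strand cover 603 bases of its exons, so reads there cannot be assigned unless strand was used; Map3k15 itself was at 2.57 to 4.66 CPM. Pdha2, the intronless copy of Pdha1 active in testis, had no read in any library.

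The E1 beta and E2 genes moved less. Pdhb (chr14:8165996-8173025, minus strand) stood at 1490, 1244 and 889 CPM across heterozygous 1 to 3 and at 931, 1020 and 923 CPM across knockout 1 to 3, so heterozygous 3 lay below all knockout-labelled libraries (log2 -0.33, 95% interval -0.82 to 0.15, edgeR adjusted p = 0.662). Without heterozygous 1 the Pdhb value was -0.15 and without heterozygous 3 it was -0.51. Dlat (chr9:50634633-50659780, minus strand) stood at 908, 853 and 697 CPM across heterozygous 1 to 3 and at 739, 672 and 752 CPM across knockout 1 to 3, with overlapping groups (log2 -0.18, 95% interval -0.55 to 0.18, edgeR adjusted p = 0.786).

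Ratios within a library, which no scaling of library sizes can change, describe the same unevenness among subunits. Per kilobase of exon, the Dlat level was 3.12, 3.25 and 2.64 times that of Pdhx across heterozygous 1 to 3 and 4.93, 4.18 and 4.50 times across knockout 1 to 3. The knockout-labelled values all lay above the others (difference of log2 ratios 0.60, two-sided exact permutation p = 0.1, which is the smallest value 3 against 3 can give; adjusted p = 0.5 over 10 such quantities). The ratio of Pdha1 to Pdhb was 2.43, 2.60 and 3.07 across heterozygous 1 to 3 and 2.11, 1.896 and 2.53 across knockout 1 to 3, with 1 overlapping library (exact permutation p = 0.2, adjusted p = 0.667).

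**Figure D2:**
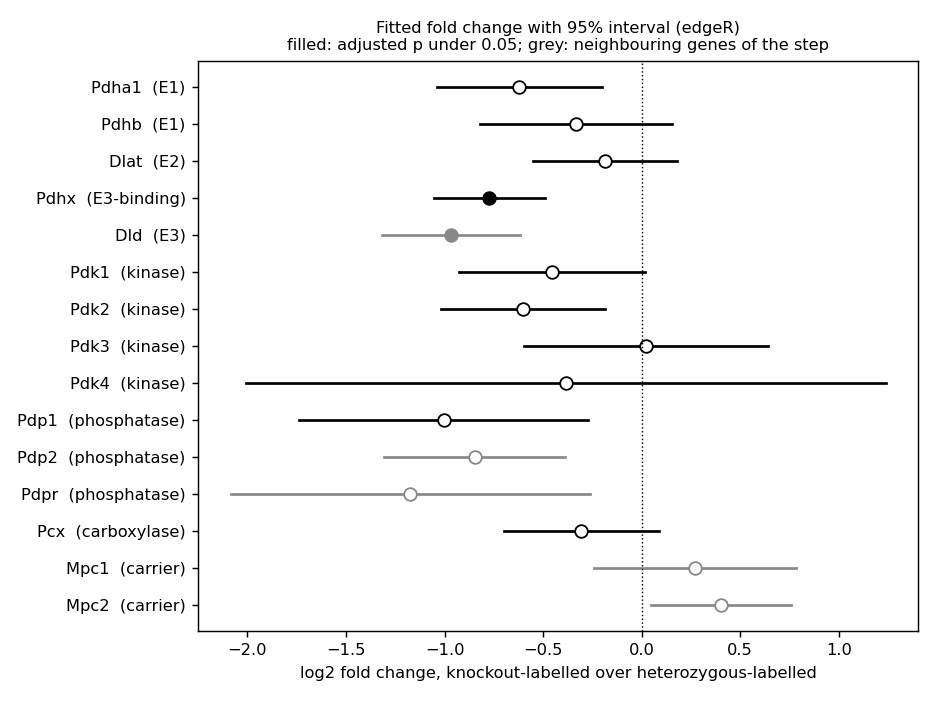
Fitted log2 fold change (x axis, knockout-labelled over heterozygous-labelled) with its 95% interval for the 10 genes in black and for Dld, Pdp2, Pdpr, Mpc1 and Mpc2 in grey, ordered by role; filled points have an adjusted p under 0.05 (edgeR). Pdhx at -0.77 and Dld at -0.97 are the filled points, and the interval of Pdk4, from -2.01 to 1.24, is the widest of the 10 members.

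The kinase genes differed from each other more than the groups did. Pdk2 (chr11:95026258-95041354, minus strand), the most widely expressed of the kinase genes, stood at 486, 506 and 580 CPM across heterozygous 1 to 3 and at 293, 320 and 423 CPM across knockout 1 to 3, without overlap. Its log2 fold change of -0.60 did not pass (SE 0.178, 95% interval -1.02 to -0.18, edgeR adjusted p = 0.189), although it did with the title prefix as a covariate (-0.61, adjusted p = 0.0458). Pdk1 (chr2:71873224-71903858, plus strand), known as a target of hypoxia signalling, stood at 247, 232 and 195 CPM across heterozygous 1 to 3 and at 139, 141 and 213 CPM across knockout 1 to 3. The 4 RF-titled libraries were apart by group and the RE-titled pair lay the other way round, with a log2 fold change of -0.45 overall (edgeR adjusted p = 0.440), -0.78 within the RF-titled libraries (edgeR adjusted p = 0.0464) and a log2 ratio of 0.12 in the RE-titled pair, which has 1 library per group and no test. Pdk3 (chrX:93764607-93832201, minus strand) was near the bottom of the measured range at 1.36 to 1.71 CPM, or 26 to 38 reads a library (log2 0.02, 95% interval -0.60 to 0.64, edgeR adjusted p = 0.989).

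Pdk4, the kinase gene that fasting and fatty acids induce, was the most abundant kinase transcript and the most variable member. Pdk4 (ENSMUSG00000019577.6, chr6:5483351-5496309, minus strand) stood at 2440, 3818 and 1201 CPM across heterozygous 1 to 3 and at 2544, 2757 and 416 CPM across knockout 1 to 3. The lowest library of each group was the RE-titled one, the RF-titled libraries averaged 3.58 times the RE-titled ones, and the groups overlapped. The log2 fold change was -0.38 with an interval of -2.01 to 1.24, which allows 0.249 to 2.36 times the heterozygous-labelled level (edgeR adjusted p = 0.929). It turned to 0.08 without knockout 3 and to 0.07 without heterozygous 2, and was -0.24 among the RF-titled libraries and -1.53 between the RE-titled ones. Some adipocyte markers differed by prefix in the same libraries. Among brown adipocyte markers, Dio2, the enzyme that activates thyroid hormone, was at 77.7 and 94.6 CPM in the RE-titled libraries and 269 to 541 CPM in the RF-titled ones. Adrb3, the adrenergic receptor of fat cells, was at 62.4 and 83.3 against 213 to 307 CPM, and Ucp1, the uncoupling protein of brown fat, at 2963 and 1647 against 4390 to 5693 CPM. Ppargc1a, a coactivator of mitochondrial genes, was at 87.4 and 64.2 against 259 to 494 CPM. Prdm16 and Plin1 were also lower in both RE-titled libraries than in every RF-titled one. The rest of the 15 brown adipocyte markers were not low in the RE-titled libraries. These were Fabp4, Cidea, Elovl3, Ebf2, Zic1, Cox8b, Cox7a1, Adipoq and Plin5. The summed white adipocyte markers were at 254 and 442 CPM in the RE-titled libraries of the heterozygous-labelled and knockout-labelled group against 92.2 to 135 CPM in the RF-titled ones. In the RE-titled libraries most of that sum came from Lep, the leptin gene, and Retn, the resistin gene. Lep was at 73.9 and 281 CPM there against 14.3 to 33.2 CPM in the RF-titled ones. Retn was at 93.3 and 106 against 30.4 to 49.5 CPM, and Agt at 12.7 and 11.4 against 0.986 to 2.97 CPM. Nnat and Trim14 did not follow the prefix, and Nnat was the highest of these markers in heterozygous 2 and knockout 2 (60.9 and 64.1 CPM). Hoxc9 and Hoxc10 had 0 to 3 reads a library. How many of all genes were lower in both RE-titled libraries was not counted. The part of these markers in the Pdk4 values was not tested.

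Per kilobase of exon, Pdk4 supplied 78.9%, 85.1% and 62.1% of the summed kinase level across heterozygous 1 to 3 and 86.7%, 86.7% and 42.3% across knockout 1 to 3. In knockout 3 it gave way to Pdk2, which made up 47.7% of the kinase level there. The Pdk4 share differed between the groups by -3.44 percentage points (exact permutation p = 1). Summed kinase level over Pdha1 was 0.939, 1.53 and 0.779 across heterozygous 1 to 3 and 1.64, 1.81 and 0.463 across knockout 1 to 3, a difference of 0.10 on the log2 scale (exact permutation p = 0.8). That difference was 0.53 among the RF-titled libraries and -0.75 between the RE-titled ones, and ran from -0.25 (without knockout 2) to 0.73 (without knockout 3). With Pdk4 left out, Pdk1 and Pdk2 together were 0.240 ± 0.0499 times Pdha1 in the heterozygous-labelled and 0.240 ± 0.0246 times in the knockout-labelled libraries (SD, n = 3 each; exact permutation p = 1).

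**Figure D3:**
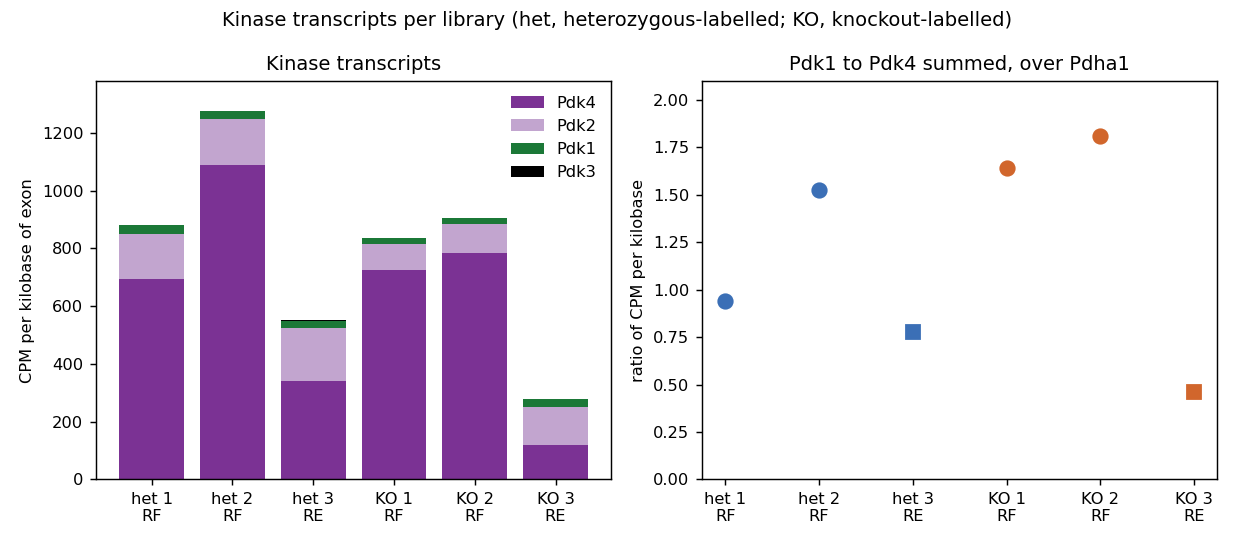
Left, level of the 4 kinase transcripts in CPM per kilobase of exon, stacked for each library; right, the summed kinase level over that of Pdha1 (blue heterozygous-labelled, orange knockout-labelled, circles RF-titled, squares RE-titled). Pdk4 makes up most of the stack except in knockout 3, and both RE-titled libraries have the lowest ratio of their group (0.779 and 0.463).

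On the phosphatase side, Pdp1 had a low level and did not pass. Pdp1 (ENSMUSG00000049225.14, chr4:11958184-11966452, minus strand), the catalytic subunit of the calcium-stimulated phosphatase, stood at 9.76, 15.8 and 23.0 CPM across heterozygous 1 to 3 and at 7.93, 6.87 and 9.46 CPM across knockout 1 to 3. The groups did not overlap, but heterozygous 1 and knockout 3 were close. The log2 fold change was -1.005 (SE 0.314, 95% interval -1.74 to -0.27, edgeR adjusted p = 0.219), and -0.66 without heterozygous 3. Pdp2, the second catalytic subunit, stood at 88.2, 76.2 and 69.3 CPM across heterozygous 1 to 3 and at 37.2, 37.0 and 55.7 CPM across knockout 1 to 3 (log2 -0.85, edgeR adjusted p = 0.0903). Pdpr, the regulatory subunit, stood at 63.0, 49.6 and 60.4 CPM across heterozygous 1 to 3 and at 25.9, 11.8 and 39.1 CPM across knockout 1 to 3 (log2 -1.17, edgeR adjusted p = 0.250). None of the 3 phosphatase genes passed by edgeR on genotype alone with all 6 libraries. Pdp2 was called lower by DESeq2 (adjusted p = 0.00756) and limma-voom (0.0179). By edgeR it was also called in the RF-titled libraries alone (adjusted p = 0.0197) and without knockout 3 (0.0339). Pdpr was called lower by DESeq2 (adjusted p = 0.0430). Over all genes DESeq2 called 638 of 17759 lower and limma-voom 165 of 13300. In each of the 3 genes all knockout-labelled libraries were below the others, as for 9.89% of all genes, and Pdpr was singled out with its values seen.

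Pcx, which encodes pyruvate carboxylase, the enzyme that refills the citrate cycle with oxaloacetate, overlapped between the groups. Pcx (chr19:4510472-4621752, plus strand) stood at 1022, 906 and 896 CPM across heterozygous 1 to 3 and at 701, 677 and 906 CPM across knockout 1 to 3. Knockout 3 was level with heterozygous 2 and 3, and the log2 fold change was -0.31 (95% interval -0.70 to 0.09, edgeR adjusted p = 0.590), with -0.49 among the RF-titled libraries and 0.02 between the RE-titled ones. Relative to Pdha1 in the same library, Pcx per kilobase was 0.229, 0.228 and 0.267 across heterozygous 1 to 3 and 0.290, 0.285 and 0.315 across knockout 1 to 3, without overlap (exact permutation p = 0.1; adjusted p = 0.5).

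Ordered by mean CPM per kilobase of exon in the heterozygous-labelled libraries, the 10 transcripts ran from Pdha1 (827 ± 116) and Pdk4 (708 ± 373) through Pdhb (313 ± 78.2), Pcx (198 ± 14.7), Dlat (168 ± 22.4), Pdk2 (166 ± 15.6), Pdhx (55.7 ± 3.29) and Pdk1 (28.9 ± 3.40) to Pdp1 (3.60 ± 1.47) and Pdk3 (0.580 ± 0.0753; SD, n = 3). The knockout-labelled order was the same except that Pdk4 (543 ± 369) stood level with Pdha1 (538 ± 58.3). Pdha1 and Pdk4 did not differ beyond their spread in either group, nor did Dlat and Pdk2 in the heterozygous-labelled one. Per-kilobase levels use annotated exons, and a gene that uses only part of them is understated.

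The title prefix separated the members in a second way. In the RE-titled pair 4 of the 10 genes (Pdhb, Dlat, Pdk1 and Pcx) had log2 ratios above 0, and among the RF-titled libraries 1 did (Pdk3). Pdha1, Pdhx, Pdk2, Pdk4 and Pdp1 were below 0 in both, at -0.22, -0.66, -0.45, -1.53 and -1.24 in the RE-titled pair. In level, Pdhb as well as Pdk4 was lower in both RE-titled libraries than in every RF-titled one. The RF-titled mean of Pdhb was 1.29 times the RE-titled mean. The differences between the prefixes were not tested. The shares of all genes lower in both RE-titled libraries, or above 0 in the RE-titled pair, were not counted. Whether the prefix pattern is particular to these members therefore cannot be read from these values.

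Other genes that handle pyruvate did not move as a block. Of 22 tested genes of that list, 12 were below 0, with a median of -0.13 (46.9% of all genes were below 0). All knockout-labelled libraries lay below the others for 7 of the 22 (9.89% of all genes) and above them for 2 (1079 of all 13300). By edgeR 1 fell and none rose, beside 0.534% called lower and 0.0526% higher over all genes. The gene that fell was Dld, the E3 enzyme that Pdhx docks, at 1326, 1186 and 1251 CPM across heterozygous 1 to 3 and at 576, 638 and 709 CPM across knockout 1 to 3 (log2 -0.97, edgeR adjusted p = 0.0475). Its call held when knockout 3 was left out and was lost when any of the other 5 libraries was (edgeR adjusted p 0.0424 to 0.202, log2 -1.06 to -0.89). It was also lost with RLE scaling (0.0504), without robust estimation (0.0543) and when library sizes excluded the muscle genes (0.0507). In this list 2 genes were called lower with the prefix as a covariate, 4 by limma-voom and 7 by DESeq2. Over all genes these fits called 244 of 13300, 165 of 13300 and 638 of 17759 lower. Dld also serves the other ketoacid dehydrogenases and the glycine cleavage system. Ldhd, a mitochondrial D-lactate dehydrogenase, had a log2 fold change of -1.24 (edgeR adjusted p = 0.0841). It was called lower with the prefix as a covariate (edgeR adjusted p = 0.00978), by DESeq2 (0.000879) and by limma-voom (0.0108). The mitochondrial pyruvate carrier genes lay on the other side: Mpc2 stood at 472, 387 and 371 CPM across heterozygous 1 to 3 and at 551, 579 and 496 CPM across knockout 1 to 3, all above (log2 0.40, edgeR adjusted p = 0.333). For its partner Mpc1, heterozygous 3 was low at 455 CPM and the other libraries lay between 680 and 817 CPM (log2 0.27, edgeR adjusted p = 0.770).

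Of 11 tested genes of the sister complexes and of the lipoate they share with E2, 2 fell (edgeR; 0.534% of all genes were called lower). All 11 were below 0, from -1.40 to -0.31 with a median of -0.54, and the groups did not overlap for 8, against 9.89% of all genes with all knockout-labelled libraries below. The 2 genes that fell were Dbt, the E2 of the branched-chain ketoacid dehydrogenase (log2 -1.40, edgeR adjusted p = 0.0475), and Bckdha, its E1 alpha (-1.07, edgeR adjusted p = 0.0367). Both kept the call without heterozygous 1 or knockout 3 and lost it without each of the other 4 libraries, where edgeR adjusted p reached 0.198 and 0.178. Dbt also lost it with RLE scaling (edgeR adjusted p = 0.0501) and when library sizes excluded the muscle genes (0.0508). With the prefix as a covariate 4 genes of the list were called lower, by limma-voom 4 and by DESeq2 5. Over all genes these fits called 244 of 13300, 165 of 13300 and 638 of 17759 lower. Ppm1k, the phosphatase of that complex as Pdp1 is of the pyruvate complex, had a log2 fold change of -1.17 (edgeR adjusted p = 0.0581).

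Of 14 tested factors known to act on Pdk4 transcription, 9 were below 0 with a median of -0.13 (46.9% of all genes were below 0). None passed by edgeR on genotype alone, by DESeq2 or by limma-voom, and 3 had an unadjusted p under 0.05 by edgeR. All 3 were lower, and 8.04% of all genes reached that p in that direction. With the title prefix as a covariate 2 were called lower, beside 244 of all 13300 genes. These were Nr4a1 (log2 -0.71, edgeR adjusted p = 0.0288) and the coactivator Ppargc1a (-0.70, edgeR adjusted p = 0.0387). The 3 at an unadjusted p under 0.05 without the prefix were the orphan receptors Nr4a1 (log2 -0.68, edgeR adjusted p = 0.195) and Esrrg (-0.52, edgeR adjusted p = 0.242), and the glucocorticoid receptor Nr3c1 (-0.31, edgeR adjusted p = 0.286). Of 20 other genes known as fasting or PPAR targets, 12 were below 0 with a median of -0.11 (46.9% of all genes were below 0). All knockout-labelled libraries lay below the others for 7 of them (9.89% of all genes). They lay above for 3 (1079 of all 13300 genes), Plin2 (log2 0.87), Cpt1a (0.47) and Cidea (0.42), none of which was called. By edgeR 3 fell and none rose, beside 0.534% called lower and 0.0526% higher over all genes. The 3 were Ucp3, an uncoupling protein (-0.92), Hadhb, the beta subunit of the mitochondrial trifunctional protein (-1.10), and Acot2, a mitochondrial thioesterase whose reads may be split with close paralogs (-1.43). Without single libraries the highest edgeR adjusted p was 0.194, 0.203 and 0.132 for Ucp3, Hadhb and Acot2, and none of them was called when heterozygous 2, heterozygous 3, knockout 1 or knockout 2 was left out. With the prefix as a covariate 7 genes of this list were called lower and 1 higher, beside 244 lower and 67 higher of all 13300 genes. DESeq2 called 7 of the list lower, beside 638 of 17759 genes.

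The muscle marker level moved with the genotype label, and the values of 4 members are given beside it. The summed level of the 27 genes spanned 3.04-fold within the heterozygous-labelled group. Across heterozygous 1, 2 and 3, in which the muscle level was 11928, 27990 and 36319 CPM, Pdp1 was at 9.76, 15.8 and 23.0 CPM and Pdk2 at 486, 506 and 580 CPM. Pdhx and Pdha1 were highest in heterozygous 1, the library of that group with the least muscle signal. Across knockout 1, 2 and 3 the muscle level was 7518, 4380 and 4205 CPM. There Pdp1 was at 7.93, 6.87 and 9.46 CPM and Pdk2 at 293, 320 and 423 CPM, both highest in knockout 3, which had the least muscle signal. Heterozygous 1 and knockout 1, the pair nearest in muscle level (1.59-fold apart), differed 1.94-fold in Pdhx, 1.85-fold in Pdha1, 1.66-fold in Pdk2 and 1.23-fold in Pdp1. The part of muscle RNA in these values was not tested.

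**Figure D4:**
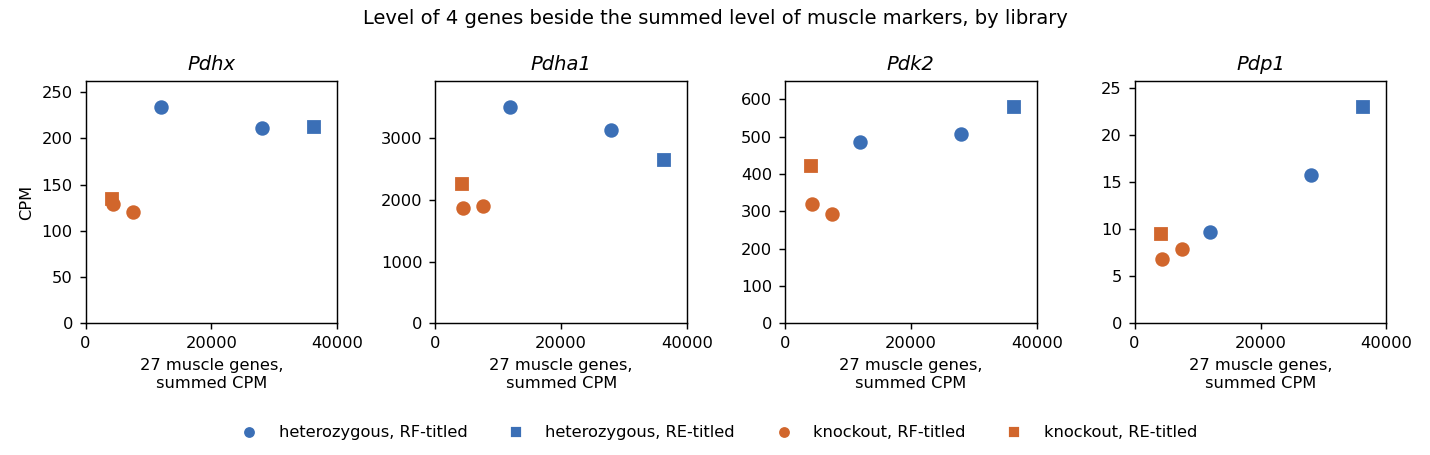
CPM of Pdhx, Pdha1, Pdk2 and Pdp1 (y axes) against the summed CPM of 27 skeletal muscle genes (x axis), 1 point per library (blue heterozygous-labelled, orange knockout-labelled, circles RF-titled, squares RE-titled). Pdp1 is highest where the muscle level is highest (23.0 CPM in heterozygous 3), whereas Pdhx and Pdha1 are highest in heterozygous 1. Among the knockout-labelled libraries Pdp1 and Pdk2 are highest in knockout 3, where the muscle level is lowest (4205 CPM).

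Fold changes of the members were also listed under 17 other settings. An adjusted p of 0.1 uses the same fit, and leaving out robust estimation gave the same fold changes, so neither could move them. Pdhx kept to the narrow range of -0.83 to -0.72, and Pdha1 ran from -0.82 to -0.52, Pdk2 from -0.78 to -0.49 and Pdp1 from -1.26 to -0.66. Pdk4 spanned -0.75 to 0.08 and Pdk3 -0.04 to 0.17, and these were the 2 members whose sign changed.

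**Figure D5:**
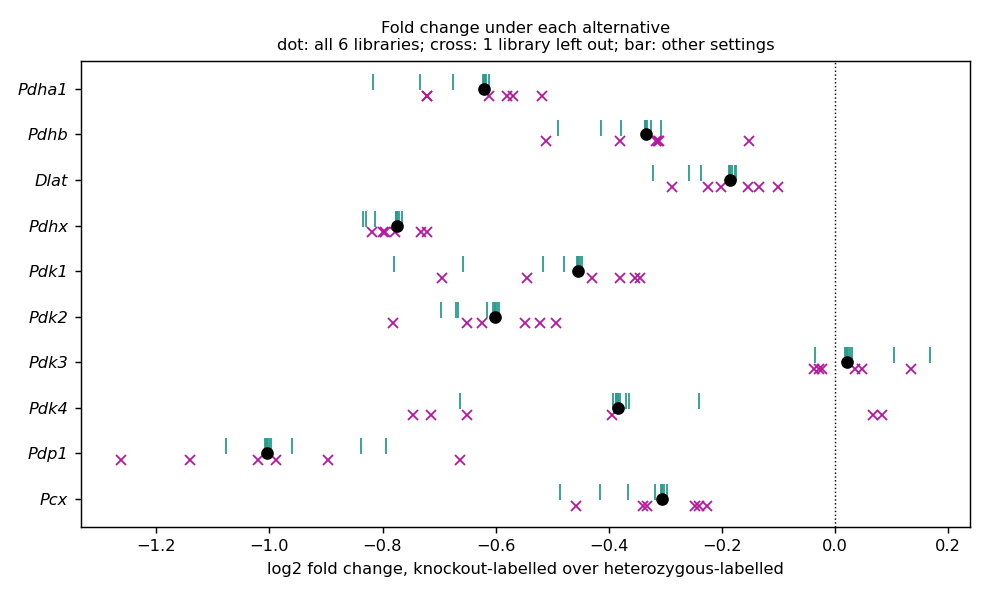
Log2 fold change (x axis, knockout-labelled over heterozygous-labelled) of each of the 10 genes with all 6 libraries (black dot), with each library left out in turn (crosses) and under the other settings (vertical bars). Pdhx varies least among the genes away from 0, from -0.83 to -0.72, and Pdk4 crosses 0 when knockout 3 or heterozygous 2 is left out.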

How the data were processed

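RNA of 6 frozen, pulverised brown fat samples was sequenced, 3 per genotype label. The authors deposited 1 table of raw read counts per gene symbol; the submitters' processing notes name, without their roles, the aligners STAR 2.7.2b and Bowtie2 2.3.4.3, the tools HTSeq, SAMtools 1.9, edgeR and Trim Galore, and build mm10. Annotation and strand setting are not stated in the sources used here. The 5 rows that name no gene (41.7% to 56.1% of the column totals) stayed out of library sizes and tests. Libraries were grouped by genotype label and numbered in accession order, which pairs nothing.

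The test was edgeR 4.0.16 under R 4.3.3 (scaling by TMM, low counts removed by filterByExpr at a minimum count of 10 and total of 15, robust quasi-likelihood F test on genotype, Benjamini-Hochberg adjustment over 13300 genes at 0.05; biological coefficient of variation 24.7%). CPM uses the scaled library sizes, and log2 ratios of the RE-titled pair add 0.5 CPM. CPM was divided by the union of GENCODE M21 exons for levels between genes. Ratios were compared by exact permutation of the samples (SciPy 1.17.1, two-sided). Alternatives were RLE scaling, library size only, other filters, each library left out, the title prefix as a covariate, DESeq2 1.42.0, the 4 RF-titled libraries only, limma-voom (3.58.1), an adjusted p of 0.1, dispersion without robust estimation, library sizes that exclude muscle genes, and transcript length.

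The members and lists were chosen with earlier results of these data known. All 10 members are named; of each other list, called genes and up to 3 with the smallest p. Pdpr, Mpc1, Mpc2, Apip, Map3k15, Pdha2, Angptl4 and single adipocyte markers were singled out for role, position or pattern with their values seen. Tested on simulated counts for the 13300 genes, the fit called 32% of 100 genes with a log2 change of 1 and 86% of 100 with a log2 change of 2, and 7.09% of its calls were false. Those counts were drawn for each gene apart, with directions at random and no shift shared across genes by prefix or muscle level. These rates therefore need not hold for the real libraries. All pairs of libraries differed by more than counting noise (chi-square over its degrees of freedom 39.3 to 304).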

Additional observations from a re-analysis of the deposited data

How the results depend on the processing

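No paired analysis was possible because the labels give no replicate number that groups share. The count of members called (1, Pdhx) was 0 with RLE scaling (Pdhx adjusted p = 0.0506), without robust estimation (0.0504) and when library sizes excluded the muscle genes (0.0507), all by edgeR with 4 members at an unadjusted p under 0.05. Fits with the prefix in the model (Pdhx and Pdk2), of the RF-titled libraries alone (Pdhx and Pdk1) and by DESeq2 (Pdhx and Pdha1) called 2 members, and fits without each library in turn called 0 (edgeR; 3 to 6 members then had an unadjusted p under 0.05). The median of the members was -0.55 with the prefix, -0.59 in the RF-titled libraries, -0.54 by limma-voom with quality weights and -0.58 to -0.38 without single libraries. The count of all genes called (78) was 311 with the prefix, 132 in the RF-titled libraries, 755 by DESeq2, 194 by limma-voom, 500 at an adjusted p of 0.1 and 0 to 400 without single libraries; the 0 came without heterozygous 2, knockout 1 or knockout 2 (edgeR; 1257, 1450 and 1393 genes had an unadjusted p under 0.05). Signs changed for Pdk3 (-0.035 with library size only, and -0.037 to 0.14 without single libraries) and Pdk4 (-0.75 to 0.084 without single libraries). Of 170 values of single members, 152 kept direction and side of the threshold. The values at an adjusted p of 0.1 and without robust estimation are among them, and their direction could not change. The causes were not tested. The Pdk4 share of the kinase level differed by -10.9 to 11.4 percentage points without single libraries. At 26 to 38 reads a library, the interval of Pdk3 ran from -0.60 to 0.64. That interval is not a detection limit, and the smallest Pdk3 difference that could be detected was not tested.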

Other observations

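Among the fasting and PPAR target genes, Angptl4, a secreted lipase inhibitor, had its lowest library of each group where Pdk4 did. It stood at 195, 298 and 101 CPM across heterozygous 1 to 3 and at 279, 359 and 21.8 CPM across knockout 1 to 3, beside Pdk4 at 2440, 3818, 1201, 2544, 2757 and 416 CPM in the same order. In both genes heterozygous 2 was the highest heterozygous-labelled library, and knockout 2 the highest knockout-labelled one. Angptl4 was chosen after its values were seen, and no test was made.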
